A study of Mus musculus with 28 samples.

Results

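Ptgds encodes lipocalin-type prostaglandin D2 synthase, and 1 gene of the 21935 in the deposited count table carries that symbol (ENSMUSG00000015090). The gene was selected on its log2 fold changes against vehicle: the value was the largest of 12580 tested genes with each of 2 farnesoid X receptor (FXR) agonists. Its values against vehicle are therefore a description and carry no p value. Only the comparison of the 2 drugs with each other was not part of that choice and was tested, although it is the difference between the 2 fold changes that made the choice. The data are liver messenger RNA from 28 male B6.V-Lepob/JRj mice, which lack functional leptin. They were 5 weeks old on arrival, and before treatment all had spent 14 weeks on the AMLN diet, which adds fat, fructose, and cholesterol to induce steatohepatitis. All 28 mice then received oral dosing daily for 2 weeks, 10 with the carboxymethylcellulose vehicle, 9 with OCA 30 mg/kg, and 9 with INT-787 30 mg/kg. OCA (obeticholic acid) is a modified bile acid, and INT-787 differs from it by an additional hydroxyl group. No lean mice and no mice on a control diet were analysed here, so every value describes obese mice on this diet.

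FXR is a nuclear receptor that hepatocytes use to sense bile acids, and its activation lowers bile acid synthesis and raises bile acid export. Prostaglandin D2 synthases act late in a chain. Phospholipases release arachidonic acid, cyclooxygenases turn it into prostaglandin H2, and terminal synthases convert that into prostaglandin D2, E2, F2 alpha, or thromboxane. The lipocalin-type enzyme also belongs to the lipocalins, secreted carrier proteins for small hydrophobic molecules, and it binds retinoids and bile pigments. It is best known from the brain, the cerebrospinal fluid, and the male genital tract. The other prostaglandin D2 synthase, Hpgds, is found mainly in hematopoietic cells.

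Ptgds lies on the minus strand of chromosome 2 (GRCm38, GENCODE M21), from 25466709 to 25470046, with 1649 bases of merged exon and 0 bases shared with an exon of the opposite strand. Sequences before the RefSeq start of Ptgds and of other induced genes are shown because AGGTCA is the hexamer that FXR and related receptors recognize, and an inverted repeat of it with 1 base between the copies is the element best known for FXR. In the 250 bases before the RefSeq start (GRCm38.p6), both strands were searched for AGGTCA, for its relative GGGTCA, for the TATA box TATAAA, for the E-box CACGTG, and for the inverted repeat with at most 2 mismatches in its 12 letters; AGGTCA also occurs within a full inverted repeat. The window of Ptgds held 0 matches to any of them, which says only that these letters do not stand there. The RefSeq start lies within the GENCODE gene, and the bases before the GENCODE start at 25470046 were not searched. Among 32851 RefSeq windows of that length, 14% held AGGTCA, 11.6% GGGTCA, 12.4% TATAAA, 6.02% CACGTG, and 0.959% the inverted repeat. The stretch of the Ptgds window that lies outside every annotated exon but within the GENCODE gene, chr2:25469843-25469999 on the minus strand, reads
Ptgds: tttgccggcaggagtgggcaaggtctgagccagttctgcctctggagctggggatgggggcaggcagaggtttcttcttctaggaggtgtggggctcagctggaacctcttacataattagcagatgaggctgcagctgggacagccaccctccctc

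For comparison, 30 bases each are given of Tmem141 and Obp2a, which lie near Ptgds and were higher with both drugs, and of Abcb11, the bile salt export pump. Capitals mark AGGTCA on either strand and, for Abcb11, the hexamers of an inverted repeat with 1 mismatch. Of the 7 genes within 500 kb that were higher with both drugs, 3 held AGGTCA, 4 held none, and 0 held the repeat. Of the 15 partner genes described below that had a window, Abcb11 alone held such a repeat and 6 held AGGTCA. A gene was counted if any of its windows held the letters, whereas the shares given above are per window. The counts therefore cannot be set against those shares.
Tmem141 (chr2:25622151-25622180, minus strand): aggcctggttcgAGGTCAcaaaacccccaa
Obp2a (chr2:25700044-25700073, plus strand): cactctgcccaggTGACCTgccttgtgtga
Abcb11 (chr2:69342658-69342687, minus strand): tggactttAGGCCAtTGACCTataagcaaa
The hexamer began 163 bases before the start of Tmem141 and 17 bases before that of Obp2a, and the Abcb11 repeat began 63 bases before its start. A match of this kind is a description of the letters and not evidence that a receptor binds there.

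Ptgds messenger RNA was close to the detection limit in vehicle livers and was abundant in every drug-treated liver. In vehicle mice the counts ranged from 0 to 17 reads, 104 reads in all 10 mice together. This was 0.738 ± 0.410 CPM (counts scaled to library size; mean ± SD, n = 10), with a lowest value of 0, a median of 0.737, and a highest value of 1.31 CPM. The mouse with 0 reads was vehicle replicate 6, whose library held only 1009593 counts, so that 0 reads allow up to 2.97 CPM (3 counts), more than any other vehicle mouse had.

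With OCA, Ptgds ranged from 16.4 to 66.0 CPM with a median of 38.7 (41.3 ± 18.2, n = 9). With INT-787 it ranged from 70.3 to 424 CPM with a median of 103.9 (164 ± 143, n = 9). The 3 groups did not overlap. The lowest OCA mouse had 12.5 times the highest value measured in a vehicle mouse and 5.53 times the 2.97 CPM that 0 reads allow in vehicle replicate 6, whereas the lowest INT-787 mouse had only 1.065 times the level of the highest OCA mouse.

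**Figure D1:**
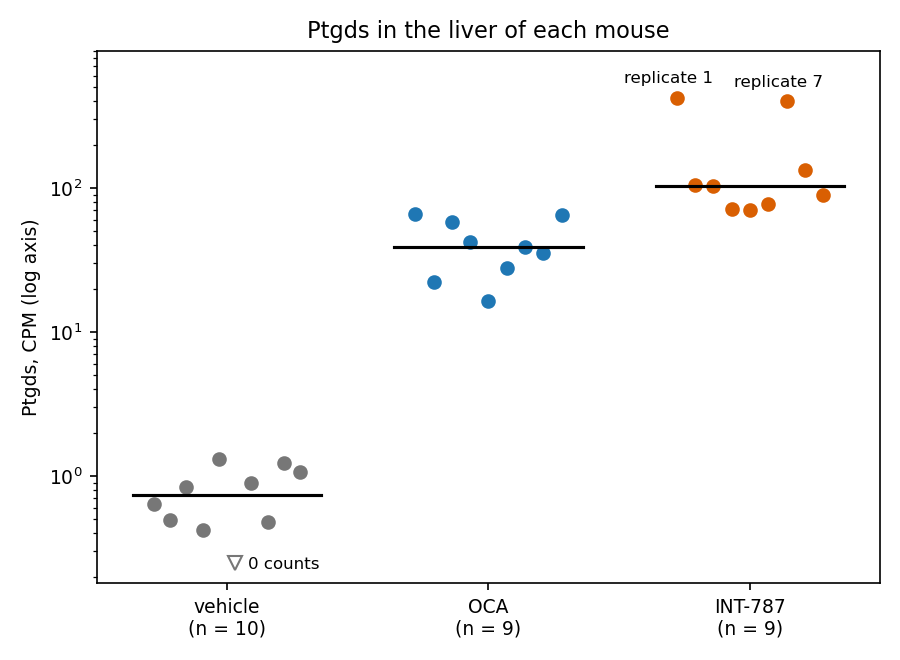
Each point is the liver of 1 mouse, the vertical axis is Ptgds in CPM on a log axis, and the horizontal lines are group medians; the open triangle is the vehicle mouse with 0 counts, which a log axis cannot place. Vehicle mice lie at or below 1.31 CPM, OCA mice between 16.4 and 66.0 CPM, and INT-787 mice between 70.3 and 424 CPM, with replicates 1 and 7 apart from the other 7.

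Individual mice show how far each drug group spread. The OCA values, from replicate 1 to replicate 9, were 66.0, 22.4, 58.2, 42.0, 16.4, 27.8, 38.7, 35.6, and 64.7 CPM, a 4.01-fold range with no mouse standing apart. The INT-787 values were 423.6, 105.0, 103.9, 71.6, 70.3, 77.5, 402.2, 133.0, and 89.8 CPM. In this group, replicates 1 and 7 were at least 3.02 times as high as any of the other 7 mice and held 55.9% of the summed CPM. The other 7 INT-787 mice averaged 93.0 ± 22.7 CPM, a group chosen after its values were seen.

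The mean log2 fold change of Ptgds against vehicle was 5.69 with OCA (SE 0.44, a 51.5-fold difference) and 7.67 with INT-787 (SE 0.46, a 204-fold difference). Each ranked 1 of 12580 genes. The vehicle mean rests on only 104 reads, and the fold had wide 95% limits, 27.5 and 96.4 for OCA and 107 and 389.7 for INT-787. Compared per kilobase of exon, Ptgds ranked 11099 of 12576 genes in vehicle livers, 1499 with OCA, and 447 with INT-787.

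Ptgds was higher in INT-787 mice than in OCA mice at the same dose. The log2 fold change was 1.99 (SE 0.33, 3.97-fold, 95% limits 2.499 and 6.31), with an adjusted p of 0.000253 by edgeR's quasi-likelihood test over all 12580 genes. Ptgds ranked 6 from the top by signed log2 fold change, an order that leaves aside genes lower with INT-787. Without INT-787 replicates 1 and 7 the difference was 1.17 on the log2 scale with an adjusted p of 0.00141, so its direction and call held while its size fell by more than 1.5 times on the linear scale. In order of level, vehicle, OCA, and INT-787 were thus separated at each step, the last step narrowly at its closest mice. These are whole-liver values, in which more cells that make Ptgds and more Ptgds per cell cannot be told apart.

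Total counts per mouse ranged from 1009593 to 22421506 (median 14864947), and the next lowest library after vehicle replicate 6 had 9313260. Vehicle replicate 5 also stood apart. Of 94 tested genes covered for most of their length by an exon on the opposite strand, 15 were in it more than 2 times the median of the other vehicle mice, against at most 6 in any other vehicle mouse, and 2.29% of all genes were so in this mouse. Ptgds shares no exon with the opposite strand, and without both of these mice its log2 fold changes were 5.75 with OCA and 7.74 with INT-787. Across the 18 drug-treated mice, Ptgds had a Pearson r of 0.147 with the log2 library total, after removal of each group's mean. No batch is given in the labels. The sample number of OCA replicate 9, the mouse with 22421506 counts, stands apart from those of all other mice. It is alone in its set, so a factor for sets of adjacent sample numbers cannot compare it with another mouse.

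Marker lists of the cell types a liver sample could hold were summed in CPM. The 8 hepatocyte markers summed to between 65680 and 142500 CPM in vehicle mice, between 109100 and 202400 with OCA, and between 98030 and 173300 with INT-787. Of the 5 adipocyte markers, Adipoq, Lep, and Retn were at 0 in all 28 mice, and the 6 pancreas markers summed to at most 0.248 CPM in any mouse. Oligodendrocytes and glia, which make Ptgds in the brain, were represented by 6 markers that summed to between 6.24 and 9.83 CPM with vehicle, 5.71 and 16.2 with OCA, and 5.98 and 11.97 with INT-787. Only 2 of the 6 were tested, and neither was called in any comparison; INT-787 replicate 1, with the most Ptgds, had the 11.97 CPM. Kupffer cell and macrophage markers (9 genes) summed to between 486 and 667 CPM with vehicle, 380 and 883 with OCA, and 287 and 586 with INT-787, and this sum had the strongest relation with Ptgds of the 12 lists over drug-treated mice (r = -0.49, group means removed). The 287 CPM was that of INT-787 replicate 1, the mouse with the most Ptgds, and r was not taken without this mouse. Called markers were 3 hepatocyte genes higher with each drug, 1 adipocyte gene lower with each drug, and, lower with INT-787, 3 macrophage, 3 smooth muscle, 2 cholangiocyte, 2 stellate cell, 2 portal fibroblast, and 1 sinusoidal endothelial gene. Between the drugs, 1 macrophage gene was higher with INT-787, and 3 macrophage, 2 smooth muscle, 2 portal fibroblast, 1 hepatocyte, and 1 cholangiocyte gene were lower. The shares of all tested genes called higher and lower were 4.15% and 2.45% with OCA, 10.2% and 9.48% with INT-787, and 2.19% and 3.19% between the drugs. The part of these cell types in the level of Ptgds was not tested.

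As partners of Ptgds, 20 genes were taken: those called higher with both drugs, at a mean of at least 5 CPM, with the largest smaller fold change of the pair. Across all tested genes, 4.15% were called higher and 2.45% lower with OCA, 10.2% higher and 9.48% lower with INT-787, and 3.42% higher with both, at an adjusted p of at most 0.05. All 20 partners are among the last of these by construction, so their fold changes against vehicle are a description too. Ptgds exceeded each of them with both drugs.

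Slc51b, a subunit of the basolateral bile acid exporter, had log2 fold changes of 2.67 in OCA mice and 3.31 in INT-787 mice. Akr1b7, an aldo-keto reductase that can also form prostaglandin F2 alpha, had 2.58 and 3.86. The others included Dnah1 (an axonemal dynein), Slc22a7 (the organic anion transporter OAT2), Hal (histidine ammonia-lyase), Tmprss4 (a membrane protease), Aqp4 (a water channel), Etnppl, Cyp3a59, and Gsta4 (a glutathione transferase), and at the end of the list Abcb11 had 1.19 and 1.70.

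**Figure D2:**
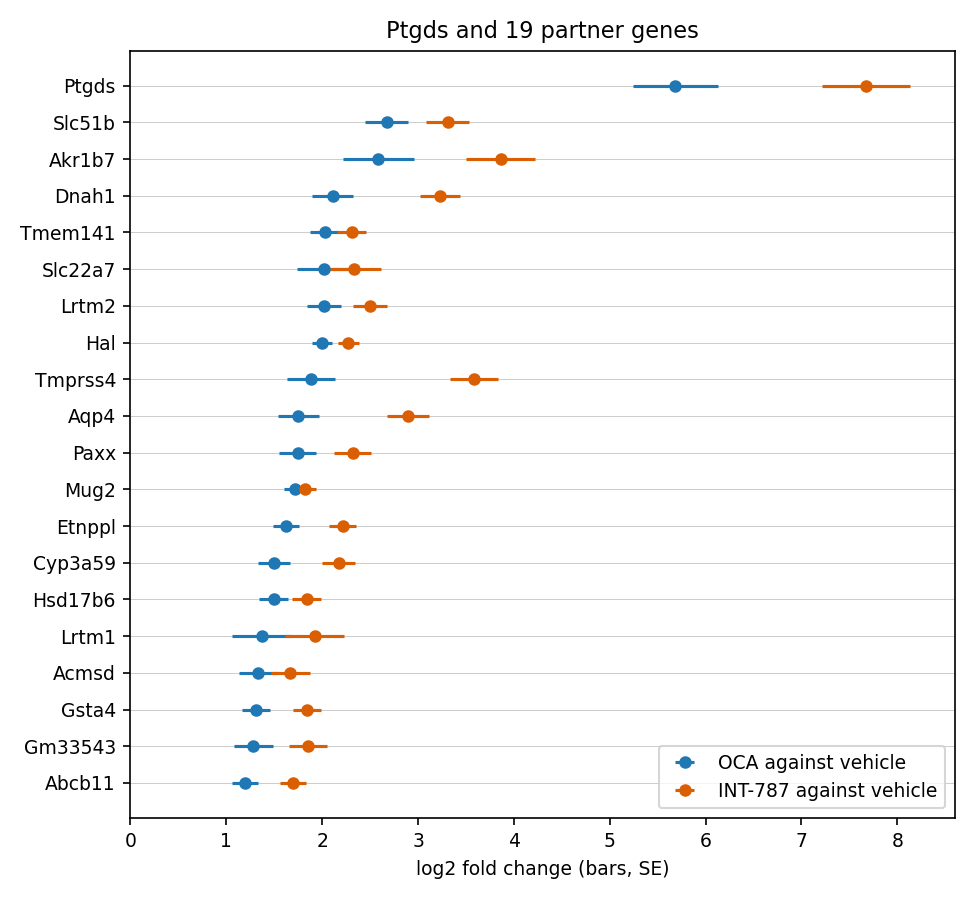
The horizontal axis is the log2 fold change against vehicle from edgeR, points are OCA (blue) or INT-787 (orange), bars are SE, and genes are ordered by the smaller of their fold changes, with 19 of the partners shown. Ptgds lies farthest right with both drugs, and in each gene shown the INT-787 point lies to the right of the OCA point.

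The mean was higher with INT-787 than with OCA in all 20 partners, and 9 of the 20 passed the direct test, as did Ptgds. The direct comparison is the difference between the fold changes by which the partners were chosen. These counts therefore describe the chosen genes and are not independent of the choice. Over all tested genes, 2.19% were called higher and 3.19% lower in this direct comparison. Of the 9, 3 averaged under 5 CPM in OCA mice and met the minimum of 5 CPM over all mice through their INT-787 level, so their count is no support for a difference, and 6 of the other 17 partners passed. Of those 6 calls, that of Gsta4 was lost in 5 of 28 fits that left out 1 mouse (adjusted p up to 0.0605 by edgeR) and that of Abcb11 in 6 (up to 0.0741). Tmprss4 differed by 1.70 (adjusted p = 8.2e-06 by edgeR). It averaged 7.82 CPM in OCA mice, with single mice from 4.16 to 15.9, and 2.025 in vehicle mice. Its INT-787 mean of 25.7 CPM therefore also helped it meet the minimum. Tmem141 differed by 0.28 (adjusted p = 0.292) and Mug2, a murinoglobulin that inhibits proteases, by 0.10 (adjusted p = 0.724), neither past the threshold.

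Whether mice with more Ptgds also had more of the partners was examined within the drug groups, using log2 CPM minus the mean of each group, so that the difference between the drugs did not enter. Over the 18 mice, r was positive for 16 of 20 partners, with a median of 0.245. For comparison, over all 9354 genes of at least 5 CPM, r was positive for 48.3%, with a median of -0.0097. The 5th and 95th percentiles were -0.43 and 0.39, and these genes share the same libraries. In all, 3 partners passed the permutation test of Pearson r (100000 permutations within groups, 2-sided, adjusted over 20 partners), and 0 passed with ranks.

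Abcb11 had r = 0.64 (permutation p = 0.00562, adjusted p = 0.0375), Tmem141 had r = 0.59 (permutation p = 0.00415, adjusted p = 0.0375), and Slc22a7 had r = 0.58 (permutation p = 0.00524, adjusted p = 0.0375). Spearman's rho within groups was 0.42 for Abcb11 (permutation p = 0.101, adjusted p = 0.502), 0.54 for Tmem141 (permutation p = 0.0275, adjusted p = 0.275), and 0.58 for Slc22a7 (permutation p = 0.0188, adjusted p = 0.275). The 2 mice farthest from the median of Ptgds were INT-787 replicates 1 and 7. Without them r was 0.37 for Abcb11, 0.57 for Tmem141, and 0.50 for Slc22a7, and 0 partners passed. Leaving out any of 12 single mice (OCA replicates 1, 3, 5, 6, 7, and 9, and INT-787 replicates 1, 2, 4, 5, 7, and 9) left at most 1 of the 3 calls.

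Over the 9 OCA mice all 20 partners had a positive r with Ptgds (median 0.40), whereas over the 9 INT-787 mice 12 did (median 0.045), and the difference between the drugs was not tested. The share of all genes with a positive r was not taken within each drug, so these counts have no background beside them. By the exact permutation test, 0 passed in either drug after adjustment, with 1 partner at an unadjusted p under 0.05 with OCA and 2 with INT-787. Over the 7 INT-787 mice other than replicates 1 and 7, 12 of 20 were positive (median 0.14), and without these 2 mice 19 of 20 were positive over the other 16 drug-treated mice (median 0.325). Hal had r = 0.52 with OCA and -0.43 with INT-787, the latter becoming 0.034 without replicates 1 and 7, whereas Lrtm2 had 0.21 and -0.60, and -0.62 without them. Abcb11, Tmem141, and Slc22a7 were positive in both, between 0.54 and 0.78. Within INT-787 this rested on replicates 1 and 7, without which r over the other 7 mice was -0.75 for Abcb11, -0.058 for Tmem141, and 0.21 for Slc22a7. With OCA, leaving out the 2 mice farthest from the median of Ptgds took r from 0.67 to 0.13 for Tmem141, and gave 0.91 for Abcb11 and 0.60 for Slc22a7.

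**Figure D3:**
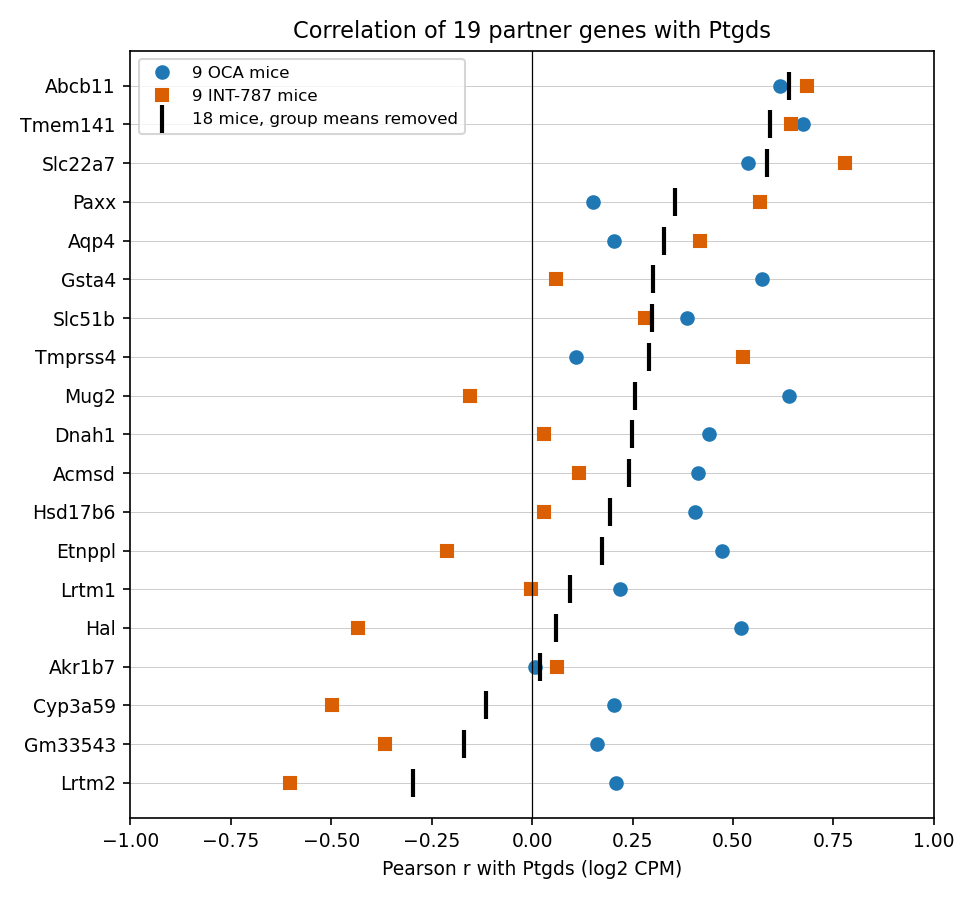
The horizontal axis is the Pearson r between log2 CPM of a partner gene and of Ptgds, over the 9 OCA mice (circles), the 9 INT-787 mice (squares), or all 18 with group means removed (bars). Of the partners, 19 are shown; all circles lie above 0, 12 of the squares do, and the bars of Abcb11, Tmem141, and Slc22a7 are the highest.

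**Figure D4:**
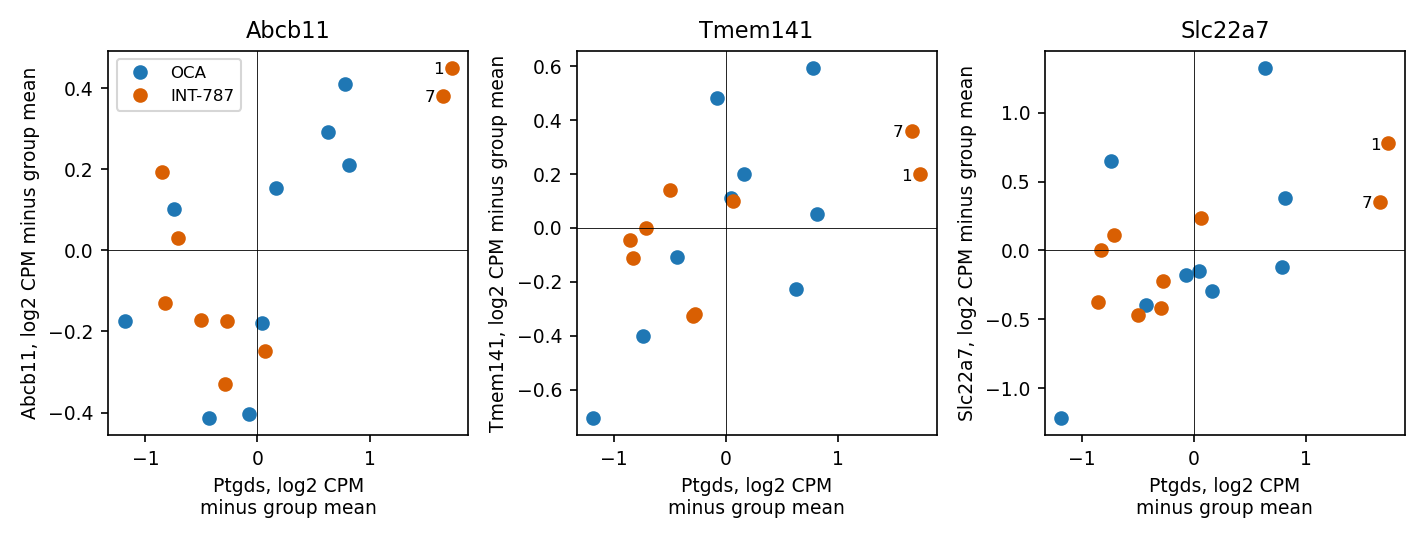
Each point is a drug-treated mouse (blue, OCA; orange, INT-787), with its log2 CPM of Ptgds minus the group mean on the horizontal axis and that of Abcb11, Tmem141, or Slc22a7 on the vertical axis; 1 and 7 mark the INT-787 replicates of those numbers. These 2 mice lie farthest right and above 0 in all 3 panels, with r over the 18 mice of 0.64, 0.59, and 0.58.

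Among genes of at least 5 CPM, those whose levels followed Ptgds most closely over the 18 drug-treated mice, with group means removed, were by Pearson r Ero1lb, an oxidase of the endoplasmic reticulum (0.79), Ssr1, a subunit of the translocon-associated complex of the same compartment (0.77), Pnpla7, a lysophospholipase (0.71), Smarcal1, a DNA helicase (0.70), and Myl9, a myosin light chain of smooth muscle (0.69). Of these 5, only Ero1lb was called higher with both drugs (log2 fold change 0.89 and 1.01; 3.42% of all tested genes were so called), and Ssr1 was called lower with INT-787 (-0.22). The lowest were Rnf145, a ubiquitin ligase of the endoplasmic reticulum (-0.80), Det1 (-0.77), Cyp2a4, a steroid hydroxylase (-0.77), 2510039O18Rik (-0.75), and Susd6 (-0.75), of which Rnf145 was called lower with both drugs (-0.37 and -0.63) and Cyp2a4 with INT-787 (-2.53). Without INT-787 replicates 1 and 7, r ranged from 0.50 to 0.65 for the 5 highest and from -0.79 to -0.41 for the 5 lowest. These are the extremes of 9354 genes, and no p is given for them. The limit of 5 CPM left out less abundant genes, among them Obp2a, described below, whose r of 0.74 lies above that of Pnpla7.

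Over all 28 mice, where the step from vehicle to drug dominates, the closest genes were Hal, Tmem141, and Amdhd1 (each 0.95), Gsta4 (0.94), and Scarb1, the receptor for high-density lipoprotein (0.94). Hal and Amdhd1 both act in histidine breakdown. Within OCA mice, Hal and Amdhd1 had r of 0.52 and 0.59 with Ptgds, and within INT-787 mice -0.43 and 0.042.

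Several genes near Ptgds on chromosome 2 were also called higher with both drugs. Within 100 kb, 16 other genes are annotated and 8 were tested, and 3 of those 8 (37.5%, against 3.42% of all tested genes) were called higher with both drugs. Paxx, a factor of DNA end joining, lies 5.62 kb downstream of Ptgds on the same strand. It ranged from 3.03 to 12.04 CPM in vehicle mice (median 5.45). OCA mice lay between 12.3 and 29.2 CPM (median 22.8) and INT-787 mice between 23.1 and 49.7 CPM (median 29.4), so that both drug groups lay above every vehicle mouse. As a partner its log2 fold changes, 1.75 and 2.32, are a description, and its r with Ptgds over 18 mice was 0.35.

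Abca2, a lipid transporter of the ATP-binding cassette family 18.2 kb away, changed by 0.83 and 0.72, and C8g, the lipocalin subunit of complement component 8 at 28.6 kb, by 0.62 and 0.80. Not every gene around Ptgds moved. Fbxw5, Traf2, Edf1, and Entpd2 passed no test in either drug, with log2 fold changes between -0.17 and 0.28, and Npdc1 was called only between the drugs (-0.67, adjusted p = 0.0418 by edgeR), a call lost in 10 of 28 fits that left out 1 mouse; without OCA replicate 8 the difference was -0.40 (adjusted p = 0.168 by edgeR). Lcn12, the lipocalin gene next to Ptgds on its upstream side at 20.8 kb, had 17 reads in all 28 mice together and was not tested.

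Within 500 kb, a window added after the values were seen, 33 of 82 annotated genes were tested and 7 (21.2%) were called higher with both drugs. The further members were Entpd8, Tmem141, Obp2a, and Bmyc, whose call with OCA was lost in 7 of 28 fits that left out 1 mouse. Obp2a, an odorant-binding lipocalin 230.0 kb upstream, lay between 0 and 0.875 CPM in vehicle mice, 2.59 and 9.25 in OCA mice, and 1.19 and 10.1 in INT-787 mice, with log2 fold changes of 4.13 and 4.06. It therefore resembled Ptgds in being nearly silent with vehicle, and its r with Ptgds over 18 mice was 0.74, but its difference between the drugs was -0.07 (adjusted p = 0.949). The neighbours Dpp7 and Uap1l1 were called lower with both drugs, and Fcna, which encodes ficolin A, was lower with OCA only (-0.79) and differed between the drugs (1.06, adjusted p = 0.000643 by edgeR). Pnpla7, named above for its r with Ptgds, lies 412.7 kb away and was not called with either drug.

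**Figure D5:**
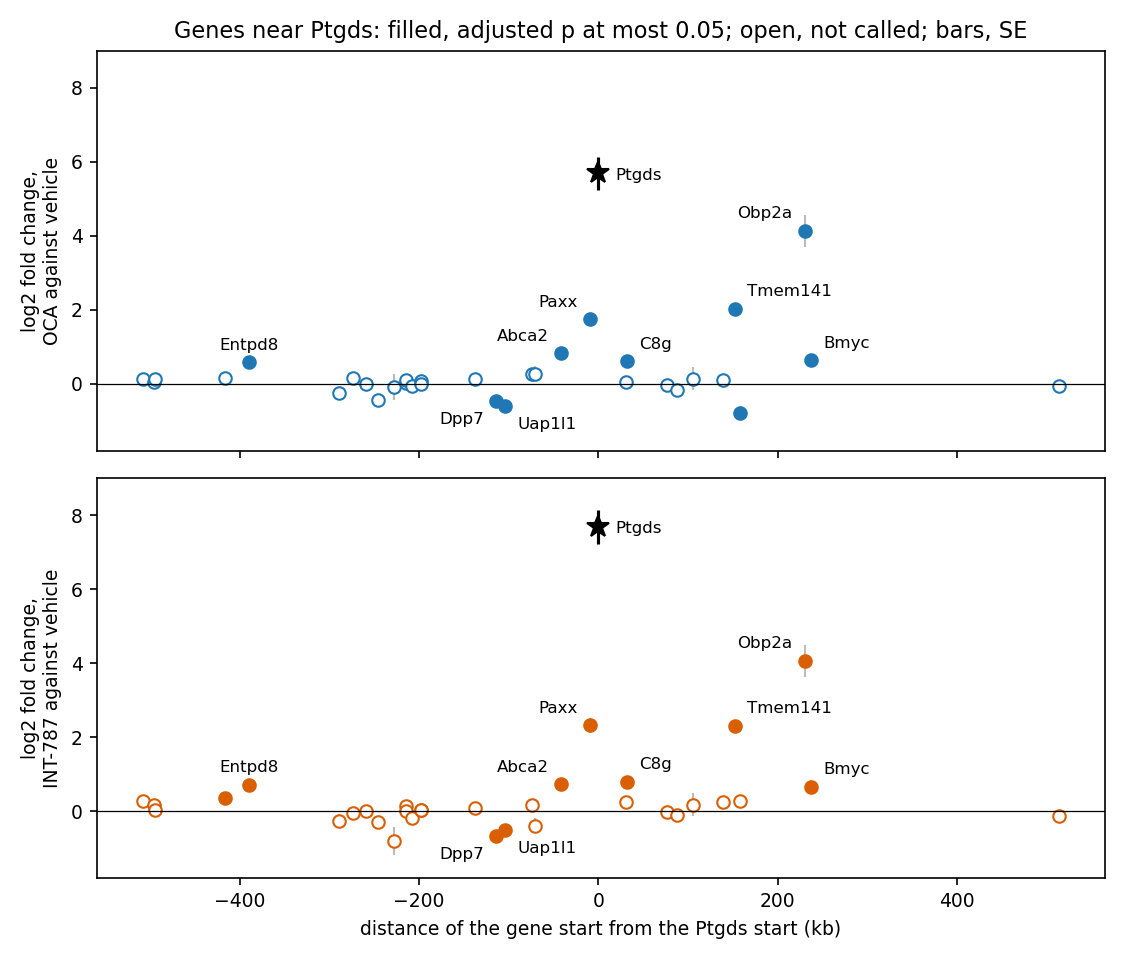
The horizontal axis is the distance of a gene's start from that of Ptgds in kb, along the direction of increasing coordinates, and the vertical axis is the log2 fold change of OCA (top) or INT-787 (bottom) against vehicle with SE; filled points were called and open points were not. The 7 genes called higher with both drugs lie on both sides of Ptgds among genes near 0, and none reaches the 5.69 and 7.67 of Ptgds.

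The other genes of the prostaglandin pathway moved in both directions. Of 32 tested, 1 was called higher and 2 lower with OCA, 5 higher and 7 lower with INT-787, and in the direct test 1 higher and 3 lower with INT-787, with median log2 fold changes of 0.031, -0.11, and -0.11. Over all tested genes the medians were 0.018, -0.001, and -0.0065, and the shares called higher and lower were 4.15% and 2.45% with OCA, 10.2% and 9.48% with INT-787, and 2.19% and 3.19% between the drugs.

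Upstream of Ptgds, the secreted phospholipase gene Pla2g12a was lower with both drugs (-0.82 with OCA, -1.12 with INT-787) and the calcium-independent phospholipase gene Pla2g6 was higher with INT-787 (0.51, adjusted p = 0.00246 by edgeR). Ptgs1, the constitutive cyclooxygenase, averaged 20.2, 16.6, and 14.2 CPM in vehicle, OCA, and INT-787 mice, and was called lower with INT-787 (-0.50, adjusted p = 0.0026 by edgeR). Ptgs2, the inducible cyclooxygenase, had 34 reads in all 28 mice and was not tested.

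Among the terminal synthases, the hematopoietic enzyme that makes the same product went the other way from Ptgds with INT-787. Hpgds averaged 5.10, 5.52, and 3.28 CPM in vehicle, OCA, and INT-787 mice, and was lower with INT-787 against vehicle (-0.69, adjusted p = 0.0234 by edgeR) and against OCA (-0.75, adjusted p = 0.0399 by edgeR). Without INT-787 replicates 1 and 7 neither call held, and the call against OCA was lost in 11 of 28 fits that left out 1 mouse. Tbxas1, thromboxane synthase, was lower with INT-787 (-0.56), Akr1b7 was the only synthase besides Ptgds called higher, and Ptges and Ptges2, synthases of prostaglandin E2, were called in no comparison.

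The receptors gave little signal. None of the 5 tested was called in any comparison by edgeR, with 1 at an unadjusted p under 0.05 in each of the 3. Ptgdr and Ptgdr2, which encode the receptors of prostaglandin D2 itself, had 2 and 10 reads in all 28 mice and were not tested. Among transport and breakdown genes, Abcc4, a prostanoid exporter, was lower with both drugs (-1.04 and -0.84). Ptgr1 (-0.68) and Cyp4f14 (-1.13) were lower with INT-787, Ptgr2, Zadh2, and Cyp4f15 were higher by 0.29 to 0.37 (the call of Cyp4f15 was lost in 10 of 28 fits that left out 1 mouse), and Hpgd, the main inactivating dehydrogenase, had 0.25 and 0.35, neither past the threshold.

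Lipocalins as a family moved in both directions. Of 9 tested besides Ptgds, 3 were higher and 0 lower with OCA (C8g, Obp2a, and Rbp4), 4 were higher and 3 lower with INT-787, and in the direct test 0 were higher and 3 lower with INT-787, with median log2 fold changes of 0.30, 0.052, and -0.24. These counts stand beside all-gene shares of 4.15% higher and 2.45% lower with OCA, 10.2% higher and 9.48% lower with INT-787, and 2.19% higher and 3.19% lower between the drugs. Lcn2, an acute phase protein, averaged 549.7, 700.5, and 238 CPM in vehicle, OCA, and INT-787 mice, and was lower with INT-787 against both vehicle (-1.21) and OCA (-1.56). Orm1 and Orm2, also acute phase proteins, were lower with INT-787 against vehicle (-0.37 and -1.58) and Orm3 was higher (0.65). The call of Orm1 was lost in 17 of 28 fits that left out 1 mouse (adjusted p up to 0.124 by edgeR) and that of Orm3 in 9 of 28 (up to 0.078).

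Ptgds protein can carry retinoids, and genes of retinoid handling were counted for that reason. Of 18 tested, 2 were higher and 2 lower with OCA, 5 higher and 3 lower with INT-787, and in the direct test 2 were higher and 0 lower with INT-787, with medians of 0.0096, -0.0041, and 0.16. The all-gene shares were the same 4.15% and 2.45% with OCA, 10.2% and 9.48% with INT-787, and 2.19% and 3.19% between the drugs. Of the 2 genes higher in the direct test, Aldh1a7 (0.37) lost its call in 17 of 28 fits that left out 1 mouse, and of those lower with INT-787, Aldh1a2 (-1.11) did so in 15. Rbp4, the plasma carrier of retinol, rose by 0.47 and 0.63, and Cyp26a1, which breaks down retinoic acid, by 1.01 and 1.13. Lrat, the stellate cell enzyme that esterifies retinol, was lower with INT-787 (-0.55).

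Known FXR-responsive genes give a scale for Ptgds. Of 19 tested, 8 were higher and 2 lower with OCA, 12 higher and 3 lower with INT-787, and 1 was higher with INT-787 than with OCA, with medians of 0.26, 0.43, and 0.16. Over all tested genes the shares were 4.15% and 2.45%, 10.2% and 9.48%, and, for higher with INT-787 than with OCA, 2.19%. The call of Osgin1 with OCA was lost in 18 of 28 fits that left out 1 mouse (adjusted p up to 0.148 by edgeR). With INT-787, that of Klb was lost in 11 such fits and that of Abcc2 in 4. Nr0b2, the repressor also called SHP, rose by 1.17 and 1.62, and Cyp7a1 and Cyp8b1, enzymes of bile acid synthesis, were lower by -2.54 and -4.11 with OCA and by -2.28 and -4.28 with INT-787. The values of Cyp8b1 depended on single mice, being -6.22 with INT-787 without INT-787 replicate 4 and -4.76 with OCA without OCA replicate 4. Abcb11 was the gene of this list that passed the test between the drugs, at 0.50 (adjusted p = 0.0307 by edgeR), where Ptgds differed by 1.99. That call for Abcb11 was lost without INT-787 replicates 1 and 7 and in 6 of 28 fits that left out 1 mouse.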

How the data were processed

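RNA was isolated from snap-frozen liver, and poly A libraries were made by the authors with a stranded kit. Per the labels and the study's methods, reads were aligned to GRCm38 with STAR, and the authors deposited raw counts per Ensembl gene, 1 column per mouse. The program that counted the reads and its use of strand are not given in the sources used here. Of 21935 genes, 21858 matched GENCODE M21.

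From the counts, genes were kept by filterByExpr (12580), scaled with TMM, and fitted with glmQLFit and glmQLFTest of edgeR 4.0.16 (R 4.3.3) in 1 model of the 3 groups, with Benjamini-Hochberg adjustment and a threshold of 0.05. Mice are separate animals, so p values measure the spread between animals. CPM use TMM-scaled totals, and correlations use log2 CPM with a prior count of 2. The study used DESeq2, run here (version 1.42.0) as an alternative, as were limma-voom (limma 3.58.1), RLE and upper-quartile scaling, no filter, 2-group fits, a replicate block, a factor for sets of adjacent sample numbers, and leaving out mice. Counting limits cover counting error only. The fit and the correlation test were tested on simulated data.

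Ptgds, the gene lists, and the tests were chosen with earlier results of these data known. Genes were named by rule: Ptgds, the 20 partners, the 5 highest and 5 lowest in r over 18 mice, the 5 highest over 28 mice, tested genes within 100 kb, and pathway members called in any comparison plus fixed members of the pathways, of which those that add to the account of Ptgds are given. Tmem141, Obp2a, Bmyc, Entpd8, Dpp7, Uap1l1, Fcna, and Lcn12 were named after their values were seen. The 500 kb window and the fits without INT-787 replicates 1 and 7 or without OCA replicate 8 were added after the data were seen. Promoter sequences are from RefSeq and matched 15 of 20 partners and 7 of 7 induced neighbours. Of the genes counted, 1 partner and 1 gene of retinoid handling are not reported here by name or value.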

Additional observations from a re-analysis of the deposited data

Results flagged for a closer look

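Ptgds, its 20 partners, and the other genes near Ptgds that were higher with both drugs (26 genes) were examined in each group for a mouse far from the others, with Dixon's ratio of the gap to the whole range. In 78 combinations of gene and group there were 7 such values, which came from 4 mice, and chance gives about 1 in 20. Ptgds itself was not among them, because INT-787 replicates 1 and 7 were both high and close to each other, which hides a pair from this ratio.

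OCA replicate 8 accounted for 3 of the 7 values. It had 13.9 CPM of Akr1b7, the next OCA mouse having 7.17, and 24.9 CPM of Gm33543, the next having 16. It had 29.8 CPM of Cyp3a59, the lowest of the group, with 72.6 next. Its Ptgds, at 35.6 CPM, was within the range of the other OCA mice.

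OCA replicate 9 was highest in Mug2 (3573 CPM, next 2574) and in Gsta4 (406 CPM, next 286). INT-787 replicate 3 was highest in Lrtm1 (25.7 CPM, next 13.1), and INT-787 replicate 4 was lowest in Hsd17b6 (330 CPM, next 517).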

How the results depend on the processing

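The log2 fold change of Ptgds stayed between 5.54 and 5.91 for OCA and between 6.86 and 7.74 for INT-787 under the other scalings, filters, tools, factors, and samples, and the difference between the drugs stayed between 1.17 and 2.00 and past the threshold in each. Leaving out 1 mouse at a time gave 5.57 to 5.79 for OCA, 7.36 to 7.77 for INT-787, and 1.67 to 2.10 between the drugs, with 666 to 936, 2116 to 2733, and 443 to 888 genes called. Only the last count moved by over 1.5 times, from 677 to 443 without OCA replicate 8, and to 429 without that mouse and vehicle replicates 5 and 6. Near Ptgds, 3 to 3 genes within 100 kb and 6 to 7 within 500 kb were higher with both drugs when 1 mouse was left out.

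The 3 correlated partners became 0 with Spearman's rho, 0 in OCA mice alone, 0 in INT-787 mice alone, and 0 without INT-787 replicates 1 and 7, and ranged from 0 to 3 when 1 of the 18 mice was left out. Why the calls were lost was not tested, and Spearman's rho used all 18 mice. The 1 gene within 100 kb that differed between the drugs (Npdc1) became 0 with no filter, the replicate block, the set of neighbouring sample numbers, without INT-787 replicates 1 and 7, and without OCA replicate 8 and vehicle replicates 5 and 6, and 2 genes passed with DESeq2 and without vehicle replicates 5 and 6.

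Mice with the same replicate number had a median r of 0.077 (11 of 27 pairs over 0.1), against 0.0037 for different numbers (52 of 234) and 0.105 for sets of adjacent sample numbers (13 of 25), and 9 of 28 mice correlated best with their own number. Pairs that shared a number or a set were thus over 0.1 more often than other pairs. The labels name no shared source, so the mice were not treated as paired in the main fit. The correlations of Ptgds with its partners were not repeated with a block. With the replicate block Ptgds had 5.91, 7.69, and 1.78, and lipocalins called with OCA rose from 3 to 5. Of 1296 values of called genes under other settings, 1223 kept their call, 73 lost it, and 0 changed direction. Vehicle levels of Ptgds are limited by depth, at most 17 reads per mouse.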
